A study of Mus musculus with 2 samples.

Results

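ADAM proteins are membrane-anchored proteins that combine a metalloprotease-like domain with a disintegrin domain, and their genes are named Adam in the mouse. All genes whose symbol is Adam followed by a number, without the related Adamts and Adamdec genes and without pseudogenes, were taken from single-cell RNA data of mouse testis. The 2 libraries held 33 such symbols, of which 32 were in both gene tables and are described here, out of 33842 genes in both tables. Adam7, an epididymal family member, was in the table of the high-fat library alone, with 2 counts. Membership rested on gene names, not on measured values, but it was set with earlier results of these data known.

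One library was labelled as testis of high-fat feeding. The other carries no diet in its label and is called the diet-unstated library here. The series describes male C57 BL/6 mice, 5 weeks old, which after 1 week of adaptation received either a diet with 60% of its energy from fat or maintenance feed over 12 weeks, with 10 mice in each diet group. Testes were dissociated with collagenase, and single cells were captured in droplets. Neither label says how many mice a library holds, and each group is 1 library. There is therefore no replicate and no test between the libraries. Every interval given is an exact 95% interval that covers counting error only.

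Family members fall into 3 kinds by known role. Many are made in the male germ line, where pairs and larger complexes of ADAM proteins on the sperm surface are needed in the mouse for sperm to pass the junction of uterus and oviduct and to bind the egg coat. Others, such as ADAM10 and ADAM17, are sheddases, enzymes that cut the outer part of other membrane proteins loose, and ADAM11, ADAM22 and ADAM23 lack a working catalytic site and are best known as receptors in nerve tissue. Germ cells pass from spermatogonia through meiosis (leptotene, zygotene and pachytene spermatocytes, then the divisions) to round and elongating spermatids, with Sertoli cells as their nurse cells.

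After filtering, 12196 cells of the high-fat library and 13286 cells of the diet-unstated library were kept, with medians of 9446 and 12917.5 unique molecular identifiers (UMIs, counted transcript molecules) per cell. Cells were clustered without the Adam genes, and the clusters were named from marker genes into 8 germ cell classes and 5 somatic classes. The 3 classes of round spermatids and those of pachytene spermatocytes and of spermatocytes near the divisions consisted of different clusters in each library, with at least 99.11% of the cells in clusters of their own library. Markers of middle round spermatids summed to 232 CPM in pachytene spermatocytes of the high-fat library and to 128 CPM in the diet-unstated library, and to 2061 and 1362 CPM in early round spermatids, so a difference in stage within classes of the same name and a difference between the libraries cannot be told apart. The middle class was mainly a cluster of 1237 cells in the high-fat library, and clusters of 1309 and 1264 cells in the diet-unstated library. Middle round spermatid markers had a mean log2 excess over other cells of 1.577, 1.04 and 1.638 in these clusters. In the cluster of 1309 cells, early round spermatid markers had 0.835. Clusters that could not be named held 1590 and 1862 cells. The libraries shared 1507 barcode names, which are serial names and do not show shared cells. Both labels name germ cells, yet 1274 cells of the high-fat library and 770 of the diet-unstated library were Sertoli cells by their markers.

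A level is the count of a gene over all UMIs of its class and library, scaled to CPM. Levels are compared within the same gene, since the counts were not divided by gene length. Shares of a gene in the counts of a pair are given to compare libraries and stages, not the genes of the pair. The 32 members made up 0.2411% of the UMIs of the high-fat library and 0.2558% of those of the diet-unstated library. Transcripts of abundant germ cell genes were also counted in cells that do not make them (free RNA). In Sertoli cells, marker genes of other cell types stood at 85.2% (high-fat) and 53.0% (diet-unstated) of their level over all cells. Adam3 was counted there at 456 and 726 CPM, against 635 and 855 CPM over all cells. Its share of that level was below that of the markers in the high-fat library and above it in the diet-unstated library. The reason was not tested. In leptotene and zygotene spermatocytes free RNA stood at 43.1% and 32.7% of the library level. Levels of the germ line members in somatic cells, spermatogonia, leptotene and zygotene spermatocytes and elongating spermatids are therefore not read as expression.

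Among 31 members with at least 20 counts in the named classes of both libraries together, 21 had their highest level in a germ cell class in both libraries, against 54.3% of all 26412 genes counted in the same way. Of 29 members with at least 20 counts in the 2 stages, 16 were at least 2-fold higher in middle round spermatids than in pachytene spermatocytes in both libraries, against 26.5% of all genes, and 15 were at least 4-fold higher, against 18.5%. Just 4 members, Adam2, Adam11, Adam17 and Adam19, were at least 2-fold lower in middle round spermatids in both libraries, against 25.7% of all genes. Of the 14 members whose protein is encoded in 1 exon, 12 were among these 16, and of the 15 counted members with more coding exons 4 were (Adam1a, Adam9, Adam15 and Adam33). The comparison is between these 2 stages alone: Adam9 was higher in leptotene and zygotene spermatocytes than in either, and Adam15 in spermatogonia and in myoid and endothelial cells. Adam1a is among these 4 because of a read-through transcript described below, and its other annotated transcript has 1 coding exon. Among all protein-coding genes the corresponding shares were 35.4% of genes with 1 coding exon and 21.2% of genes with more. The 2 members with 1 coding exon outside the 16 were Adam1b and Adam30. Members that lie side by side share an origin and are not independent of each other, and 8 of the 14 are on chromosome 8.

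**Figure D1:**
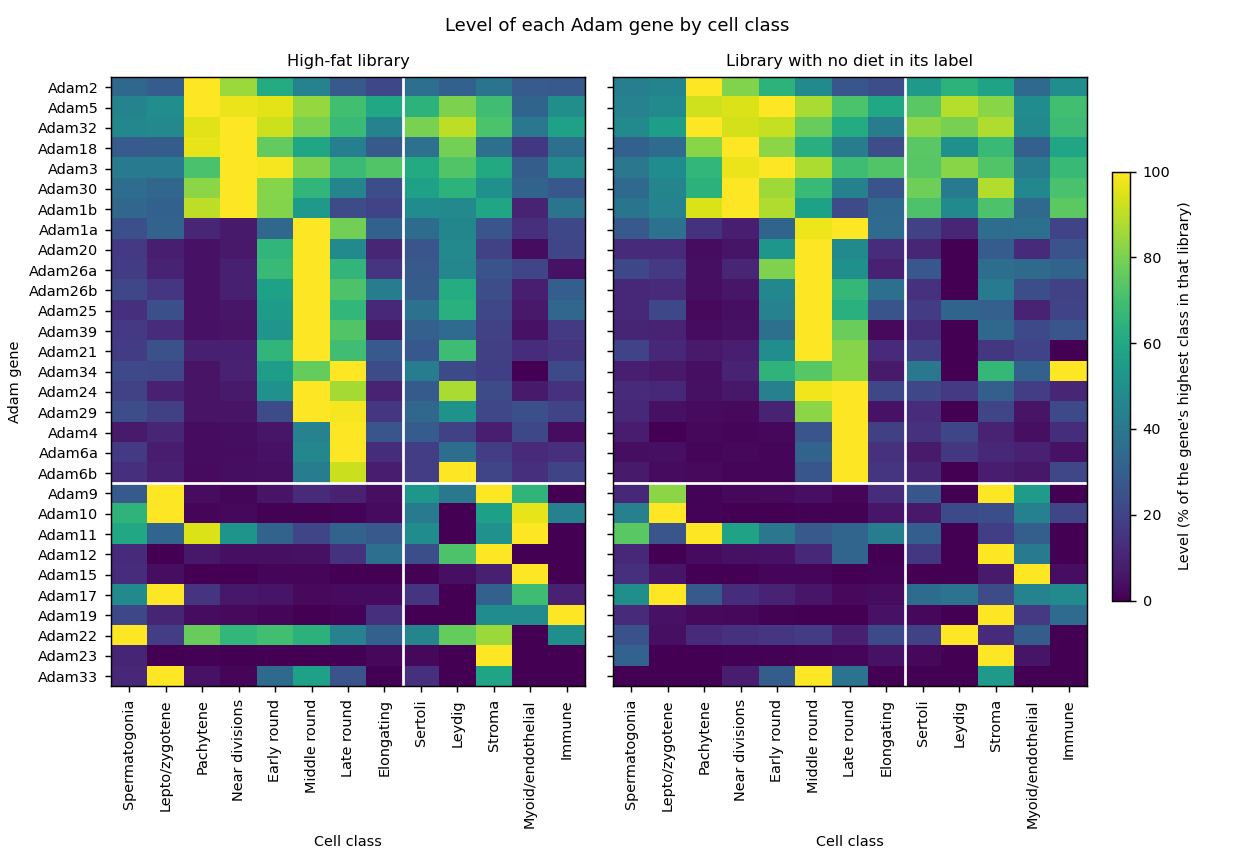
Level of 30 Adam genes with at least 100 counts (rows) in 13 cell classes (columns), as a percentage of the gene's highest class in the high-fat library (left) and in the diet-unstated library (right). The upper 20 rows are the testis-type members and the lower 10 the others, and the vertical line separates germ cells from somatic cells. Leydig cells number 76 and 27, so that single counts colour their column.

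Adam1a and Adam1b encode 2 versions of the alpha subunit of fertilin, a heterodimer with ADAM2. In the mouse ADAM1A works inside the developing germ cell, where it is needed for ADAM3 to reach the surface, and ADAM1B reaches the sperm surface. The genes are neighbours on chromosome 5 and lie on the same strand. Their promoter regions are shown because the genes were highest at opposite ends of the same interval. Each is 300 bases from RefSeq, 250 before and 50 after the annotated start (build GRCm38.p6), printed along the gene's strand, and capitals mark AACNG on either strand, the core that MYB proteins bind (MYBL1 is a regulator of pachytene spermatocytes in the mouse).
Adam1a, chr5:121521646-121521945, minus strand: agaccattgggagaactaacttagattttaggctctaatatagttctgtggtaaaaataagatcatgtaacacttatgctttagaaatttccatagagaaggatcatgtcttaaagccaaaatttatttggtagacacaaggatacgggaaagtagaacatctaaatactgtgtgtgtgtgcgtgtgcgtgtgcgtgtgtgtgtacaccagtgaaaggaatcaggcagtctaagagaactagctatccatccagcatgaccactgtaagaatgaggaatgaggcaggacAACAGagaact
Adam1b, chr5:121503386-121503685, minus strand: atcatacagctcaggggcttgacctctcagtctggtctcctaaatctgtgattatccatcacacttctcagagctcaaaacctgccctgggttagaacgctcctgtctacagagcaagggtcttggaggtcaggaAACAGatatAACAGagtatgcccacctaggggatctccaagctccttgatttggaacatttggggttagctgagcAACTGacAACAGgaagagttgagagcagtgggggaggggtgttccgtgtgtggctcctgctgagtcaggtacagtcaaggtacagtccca
AACNG was found 4 times near the start of Adam1b and 1 time near that of Adam1a. It is common, since 80.29% of the 32851 promoters searched hold it, and neither a match nor its absence is evidence of binding. The full cyclic AMP response element TGACGTCA was in none of the promoter regions available for 17 of the 32 members, and 1.79% of all promoters hold it.

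Adam1b had 86.8 CPM in pachytene spermatocytes, 96.3 CPM near the divisions and 21.8 CPM in late round spermatids of the high-fat library. In the diet-unstated library it had 84.2, 89.1 and 20.6 CPM at the same stages. Adam1a ran the other way, with 19.8 CPM in pachytene spermatocytes, 186 CPM in middle round spermatids and 147 CPM in late round spermatids of the high-fat library, and 19.4, 129 and 132 CPM in the diet-unstated library. In middle round spermatids Adam1a was 9.41-fold higher than in pachytene spermatocytes in the high-fat library and 6.64-fold higher in the diet-unstated library, while the ratios of Adam1b were 0.595 and 0.607. With free RNA subtracted Adam1a still had 10.7 and 13.9 CPM in pachytene spermatocytes. With the Adam genes kept in the clustering, the log2 ratio of Adam1a between the libraries in middle round spermatids was -0.47, against 0.53 for the levels given here, so the direction was not the same under both settings. That run admitted 1 Adam gene to the variable genes, and other clusters were named middle round spermatids. Its high-fat class was mainly a cluster of 1208 cells, with mean log2 excesses of 1.108 for middle and 0.887 for early round spermatid markers. Its diet-unstated class was a cluster of 1266 cells, with 1.641 for middle markers. Adam1a accounted for 70.3% of the counts of both genes in round spermatids of the high-fat library (interval 69.5 to 71.0) and for 63.6% in the diet-unstated library (62.9 to 64.4). These shares pool early, middle and late round spermatids, whose mix was different in each library. One annotated Adam1a transcript is a 14-coding-exon read-through with the neighbouring gene Mapkapk5, which itself had 0.902 and 0.915 CPM in middle round spermatids. Tmem116 overlaps both Adam1 genes on the other strand, had 43.2 and 31.6 CPM in these cells, and could share reads with them because no source used here says whether the counting took strand into account.

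The partner of both, Adam2 (fertilin beta), had 403 CPM (interval 396 to 410) in pachytene spermatocytes, 178 CPM in middle round spermatids and 113 CPM in late round spermatids of the high-fat library. In the diet-unstated library the levels were 372 (363 to 380), 176 and 99.3 CPM. Adam2 was thus highest in the class where Adam1a was near its lowest, in both libraries. Adam3 (cyritestin), which mouse sperm need for passage into the oviduct, had its highest levels around the divisions and in early round spermatids, at 749 and 738 CPM in the high-fat library and 954 and 982 CPM in the diet-unstated library. In middle round spermatids it had 604 CPM (595 to 613) in the high-fat library and 861 CPM (852 to 869) in the diet-unstated library.

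Adam5, which forms a complex with ADAM2 and ADAM3 on mouse sperm, stayed within a narrow band from pachytene spermatocytes to early round spermatids. It had 502, 489 and 481 CPM in the 3 classes in the high-fat library and 385, 392 and 414 CPM in the diet-unstated library. Adam32 had 493 CPM in pachytene spermatocytes and 516 CPM near the divisions in the high-fat library, and 642 and 600 CPM in the diet-unstated library. Adam18 was highest near the divisions, with 115 and 113 CPM in the high-fat and diet-unstated libraries, and had 49.5 and 47.6 CPM in late round spermatids. Adam3, Adam5, Adam18 and Adam32 are neighbours on chromosome 8 together with Adam9, which is not a germ line member. All of these 4 have many coding exons and none was 2-fold apart between pachytene and middle round spermatids in either library. Adam30, which is elsewhere in the genome and has 1 coding exon, was not 2-fold apart between these 2 stages either. Like Adam18, it was highest near the divisions in both libraries. It had 72.8 CPM in pachytene spermatocytes, 87.9 CPM near the divisions and 40.0 CPM in late round spermatids of the high-fat library. In the diet-unstated library it had 44.0, 68.6 and 30.3 CPM.

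**Figure D2:**
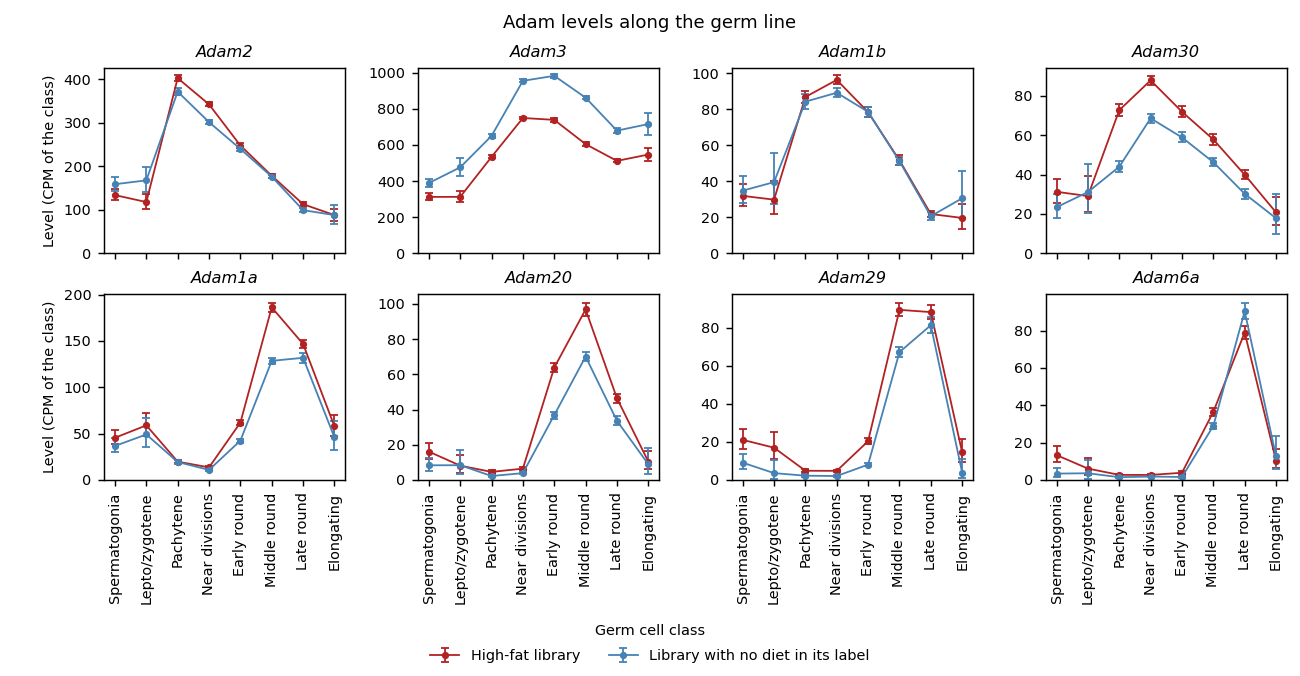
Level in CPM of 8 Adam genes in the 8 germ cell classes, in order of development, in the high-fat library (red) and the diet-unstated library (blue), with exact 95% Poisson intervals of the counts. Adam2, Adam3, Adam1b and Adam30 are already high in pachytene spermatocytes, while Adam1a, Adam20, Adam29 and Adam6a are low there and high in middle or late round spermatids. Levels in spermatogonia, leptotene and zygotene spermatocytes and elongating spermatids include free RNA.

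A second set of testis members was low through meiosis and high in spermatids. Adam24, Adam25, Adam20 and Adam39 form one group of neighbours on chromosome 8, and Adam26a, Adam26b and Adam34 another. The group includes the testases, testis proteases that are processed as sperm mature, and mouse eggs fertilised by sperm without ADAM24 admit extra sperm more often. The promoter regions of Adam20 and Adam25 are shown in the same form as above. Of the neighbouring pairs compared, this one had the most identical bases.
Adam20, chr8:40793023-40793322, plus strand: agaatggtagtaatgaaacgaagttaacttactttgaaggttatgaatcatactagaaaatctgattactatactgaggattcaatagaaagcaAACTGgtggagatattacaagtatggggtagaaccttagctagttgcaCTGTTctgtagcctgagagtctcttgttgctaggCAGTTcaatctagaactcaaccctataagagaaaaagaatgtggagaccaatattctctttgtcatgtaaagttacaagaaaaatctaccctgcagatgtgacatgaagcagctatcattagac
Adam25, chr8:40751958-40752257, plus strand: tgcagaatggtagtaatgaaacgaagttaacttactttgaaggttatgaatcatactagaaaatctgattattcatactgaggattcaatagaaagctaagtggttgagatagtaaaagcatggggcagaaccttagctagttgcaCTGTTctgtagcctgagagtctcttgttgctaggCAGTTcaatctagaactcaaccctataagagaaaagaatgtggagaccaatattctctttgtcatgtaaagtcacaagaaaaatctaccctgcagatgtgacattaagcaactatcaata
These 2 regions align over 296 bases with 284 identical bases, and hold AACNG 3 and 2 times. Those of Adam1a and Adam1b have 150 identical bases among 198 aligned ones. Adam26b and Adam34 have 166 among 231, and Adam6a and Adam6b have 199 among 199.

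In middle round spermatids Adam20 had 96.8 CPM in the high-fat library and 70.0 CPM in the diet-unstated library, against 4.58 and 2.24 CPM in pachytene spermatocytes. Adam25 had 44.7 and 44.2 CPM in middle round spermatids and 2.21 and 1.14 CPM in pachytene spermatocytes. Both genes were far lower in pachytene spermatocytes in each library. Adam24 had 130 and 82.0 CPM, Adam39 65.0 and 50.3 CPM, Adam26b 73.3 and 69.1 CPM, and Adam26a 73.8 and 28.0 CPM in middle round spermatids of the high-fat and diet-unstated libraries. In pachytene spermatocytes free RNA stood at 12.6% and 9.09% of the library level, and with it subtracted the 12 members with 1 coding exon among the 16 had 0.889 CPM or less there in the high-fat library and 0.671 CPM or less in the diet-unstated library. No ratios of round spermatids to that class are therefore given for these members. Adam34 had 25.3 and 14.7 CPM in late round spermatids, where it was highest among the germ cell classes in both libraries, and Adam21, on chromosome 12, had 24.8 and 20.8 CPM in middle round spermatids. The predicted gene Gm5347 overlaps Adam34 on the same strand and had 9.04 and 7.98 CPM in late round spermatids, and Gm35629, which also overlaps it, had 4.21 and 1.90 CPM. Adam25 and Adam39 are identical at 374 of the last 400 bases of their transcripts, the part that is counted, so their separate levels are uncertain.

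Within round spermatids, 4 testis members were much higher late than early. Adam29 had 20.4, 89.3 and 88.1 CPM in early, middle and late round spermatids of the high-fat library, and 8.06, 67.1 and 81.2 CPM in the diet-unstated library. As for Adam1a, its log2 ratio between the libraries in middle round spermatids turned to -0.70, against 0.41, with the Adam genes kept in the clustering. Adam6a had 3.86, 36.5 and 78.9 CPM in the high-fat library and 1.59, 28.9 and 90.3 CPM in the diet-unstated library. ADAM6, whose genes lie inside the immunoglobulin heavy chain locus, is required for fertility of male mice and joins ADAM2 and ADAM3 in a complex. Adam6b had 1.86 CPM in early and 41.9 CPM in late round spermatids of the high-fat library, and 0.62 and 42.1 CPM in the diet-unstated library. Adam4, which also joins ADAM2 and ADAM3, had 3.37 and 57.0 CPM in early and late round spermatids of the high-fat library and 1.38 and 67.3 CPM in the diet-unstated library. The early levels of Adam4, Adam6a and Adam6b include free RNA, so no fold is given over them. With free RNA subtracted, they had 1.35, 1.04 and 0.371 CPM in early round spermatids of the high-fat library. In those of the diet-unstated library the free RNA estimate was larger than the levels seen, so the subtracted levels were set to 0 CPM each. Values of 0 set in this way do not show absence or a difference between the libraries. Markers of late round spermatids summed to 71.7 and 27.6 CPM in early round spermatids of the 2 libraries, and their part in these levels was not tested. Adam6a and Adam6b share 339 of the last 400 bases, so their separate levels are uncertain. Adam4 overlaps Cox16 and the predicted gene Gm20498 on its own strand, and Gm20498 had 68.4 and 68.0 CPM in late round spermatids, so reads could be shared between it and Adam4.

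Adam6a was detected in 71.7% of late round spermatids of the high-fat library and in 67.3% of those of the diet-unstated library. With each cell thinned to 1000 UMIs the shares were 8.22% and 7.29%, and in Sertoli cells, which should lack it, they were 1.88% and 1.04%. In early round spermatids the thinned shares were 0.505% and 0.15%. Free RNA stood at 14.5% and 28.1% of the library level in early round spermatids, less than in Sertoli cells, so the Sertoli shares are no direct measure of the background there.

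Sheddases and other broadly expressed members were high elsewhere. ADAM15 is a disintegrin known from endothelial cells, and Adam15 had 283 CPM (interval 228 to 347) in the class of myoid and endothelial cells of the high-fat library and 253 CPM (217 to 292) in that of the diet-unstated library. When this class was divided by its markers, Adam15 had 320 CPM in 52 endothelial cells and 273 CPM in 103, while the 11 and 25 myoid cells held 0 and 1 counts of it, which allows up to 99.2 and 96.6 CPM. Spermatogonia had 35.6 CPM (29.4 to 42.8) and 34.4 CPM (27.7 to 42.3), and pachytene spermatocytes 0.384 and 0.381 CPM. A second, small maximum stood in early round spermatids, at 3.60 and 4.48 CPM. Adam15 was detected in 0.314% and 0.13% of Sertoli cells, against 42.9% and 47.7% of myoid and endothelial cells, which had deeper counts (medians of 3681 and 3194.5 UMIs, against 1527 and 1353.5 in Sertoli cells).

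Adam10, the sheddase that cuts Notch receptors and cadherins, and Adam17, which releases tumour necrosis factor and ligands of the epidermal growth factor receptor, were both high in leptotene and zygotene spermatocytes. Adam10 had 27.3 CPM in spermatogonia, 42.0 CPM (32.2 to 53.8) in leptotene and zygotene spermatocytes and 0.672 CPM in pachytene spermatocytes of the high-fat library, and 27.6, 63.5 (47.6 to 83.0) and 0.524 CPM in the diet-unstated library. Adam17 had 19.5, 40.6 and 6.11 CPM at these stages in the high-fat library and 18.5, 37.1 and 10.4 CPM in the diet-unstated library. The early germ cells were shallow, with medians of 2267 and 2081 UMIs per leptotene or zygotene cell, so that these levels rest on 62 and 53 counts of Adam10 and on 60 and 31 counts of Adam17. Endothelial cells had Adam10 at 45.7 CPM (24.3 to 78.1) in the high-fat library and 30.2 CPM (18.4 to 46.6) in the diet-unstated library, so these 2 cell types are not apart beyond counting error in the high-fat library. With each library clustered on its own, the log2 ratio between the libraries in leptotene and zygotene spermatocytes was 3.15 for Adam10, 1.66 for Adam17 and 4.30 for Adam9, against -0.60, 0.13 and 0.76 as given here. In Sertoli cells Adam10 had 17.4 CPM (12.7 to 23.2) in the high-fat library and 4.36 CPM (1.88 to 8.60) in the diet-unstated library, and Adam17 had 6.04 CPM (3.45 to 9.81) and 13.1 CPM (8.39 to 19.5). Adam17 overlaps Iah1 on the other strand, which had 123 and 88.9 CPM in spermatogonia and 15.6 and 16.8 CPM in leptotene and zygotene spermatocytes of the high-fat and diet-unstated libraries, so reads could be shared between them.

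Adam9, a sheddase and a neighbour of the cyritestin group, had 14.2 CPM (8.81 to 21.7) and 8.38 CPM (3.37 to 17.3) in leptotene and zygotene spermatocytes and 14.2 and 10.1 CPM in the interstitial stroma. Adam23, one of the nerve-type members, stood at 50.5 CPM (34.5 to 71.2) in the stroma of the high-fat library and at 25.4 CPM (14.2 to 41.8) in that of the diet-unstated library, on 32 and 15 counts. Of the other 2 nerve-type members, Adam11 was highest among germ cells in pachytene spermatocytes, with 5.89 and 9.14 CPM, and Adam22 had 7.43 and 7.19 CPM in spermatogonia. The meltrins Adam12 and Adam19 were seen in the stroma, with 7.89 and 10.1 CPM of Adam12 and 6.31 and 25.4 CPM of Adam19, all on 15 or fewer counts. Adam19 had 12.9 and 8.89 CPM in immune cells. Adam33 had 1.55 and 3.12 CPM in middle round spermatids. Adam8, known from leukocytes, had 50 counts in all cells together, too few to place it. Adam28 had 20, not all of them in named classes, and is the member left out of the 31.

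**Figure D3:**
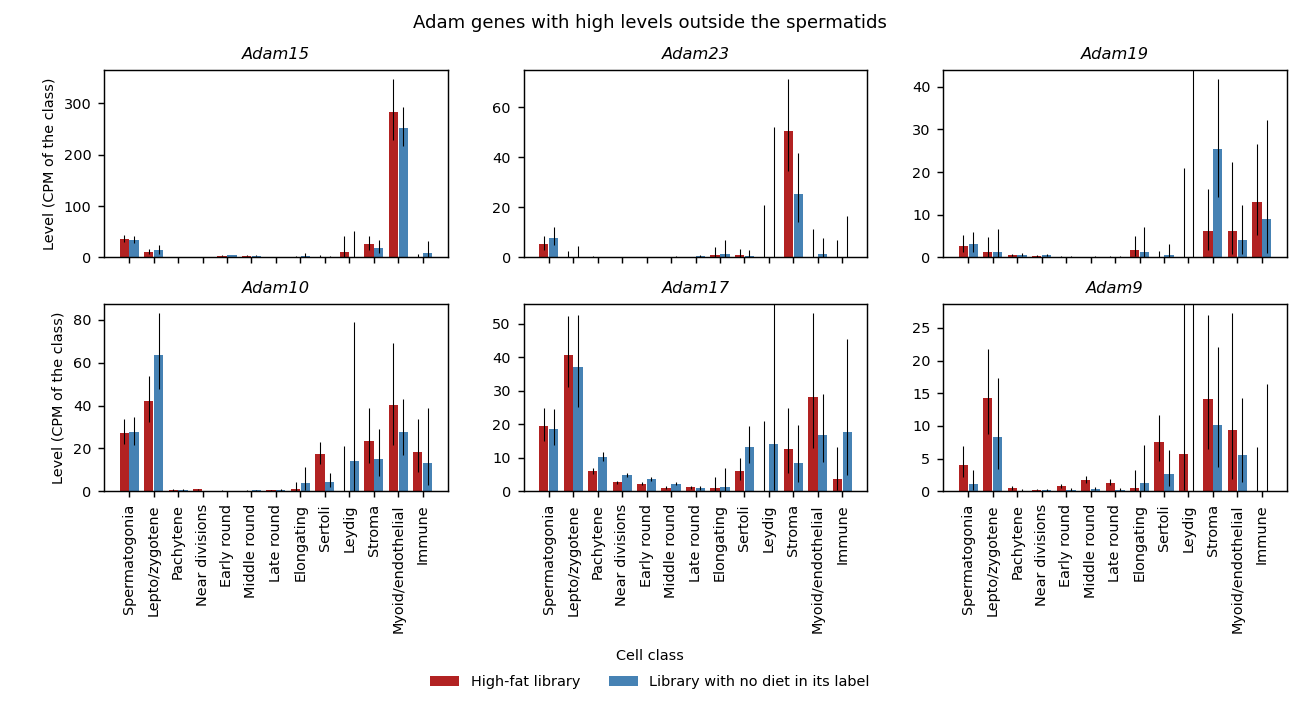
Level in CPM of 6 Adam genes in 13 cell classes of the high-fat library (red) and the diet-unstated library (blue). Black lines are exact 95% Poisson intervals, and those of the 76 and 27 Leydig cells run past the top of some panels. Adam15 is highest in the myoid and endothelial class and Adam23 in the stroma, while Adam10 and Adam17 are high in leptotene and zygotene spermatocytes and have wide intervals in the somatic classes.

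The series was designed around diet, but with 1 library per group an effect of diet cannot be told apart from other differences between the libraries. The ratios below only describe these 2 libraries. In pachytene spermatocytes 3 of 27 counted members were at least 2-fold higher in the high-fat library and 0 at least 2-fold lower, against 13.7% of all genes that were higher and 5.55% that were lower, 19.3% in all. These were Adam20 (log2 ratio 1.03, interval 0.55 to 1.54), Adam29 (1.11, 0.63 to 1.62) and Adam26a (1.67, 1.01 to 2.39), all at 4.83 CPM or less in both libraries in this class. The median log2 ratio of the members was 0.38, against 0.11 for all genes. With free RNA subtracted, Adam26a had 0 CPM in this class in both libraries, Adam20 had 0.0245 CPM in the high-fat library and 0 in the diet-unstated library, and Adam29 had 0.680 and 0 CPM. Each 0 here was set because the free RNA estimate was larger than the level seen. The count of 3 ranged from 1 to 7 with other ways of clustering and counting.

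In all round spermatids together, 4 of 29 members were at least 2-fold apart, 2 in each direction, against 21.4% of all genes, of which 12.1% were higher and 9.25% lower. This pooled class had a different mix of stages in each library. Early, middle and late cells gave 34468411, 27709890 and 25895017 UMIs in the high-fat library. In the diet-unstated library they gave 37096406, 44815208 and 18429137 UMIs. The part of this mix in the pooled ratios was not tested. Adam26a (log2 ratio 1.28, interval 1.21 to 1.36) and Adam9 (1.99, 1.40 to 2.61) were higher in the high-fat library, and Adam23 (-1.34, -2.71 to -0.12) and Adam12 (-1.18, -1.68 to -0.71) were lower. Adam9 rested on 108 and 31 counts, Adam12 on 51 and 132, and Adam23 on 8 and 23. The median of all 29 was 0.10, against 0.05 for all genes. Among the members with many counts, Adam3 was lower in the high-fat library (log2 ratio -0.47, -0.49 to -0.46), as was Adam32 (-0.28, -0.30 to -0.26), Adam24 was higher (0.61, 0.56 to 0.65), and Adam2 had a log2 ratio of 0.00 (-0.03 to 0.04). Intervals this narrow reflect the number of counts and do not include differences between mice or between library preparations.

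Testis members of the 2 timings had different median ratios, and so did all genes of these timings. The 13 testis members at least 2-fold higher in middle round spermatids than in pachytene spermatocytes, called spermatid-side here, were all higher in the high-fat library in pachytene spermatocytes, with a median log2 ratio of 0.91, and the other 7 had a median of 0.12. Of all 3610 genes with the same call that were counted there, 83.5% were higher, with a median of 0.65, and of the other genes 53.0% were, with a median of 0.03. With free RNA subtracted, 7 of the 13 were higher in pachytene spermatocytes. Among the 7, Adam20 and Adam29 had 0 CPM in the diet-unstated library, where the free RNA estimate was larger than the level seen. Adam26a, at 0 CPM in both libraries for the same reason, was not counted as higher. The count thus depends on which levels were set to 0, and the rest of the 13 were not all lower. In all round spermatids the medians were 0.37 for the 13, again all higher, and -0.06 for the 7, against 0.30 for all genes with the same call, of which 70.7% were higher, and -0.04 for the others. In late round spermatids alone the medians were 0.15 and 0.08, with 10 of the 13 higher, against 58.7% of all genes with the same call. That count of 10 became 5 with each library clustered on its own and 5 with genes scaled within each library. The difference between the 13 and the 7 was not tested. In Sertoli cells, where germ line transcripts are read as free RNA, the 13 had a median of 1.13 and the 7 a median of -0.44, against 0.85 and -0.05 for all genes with and without the call. The free RNA estimate there was 85.2% and 53.0% of the library level, while all of the 13 but only 1 of the 7 were higher in the high-fat library. Why the 2 sets went different ways was not tested. Markers of middle round spermatids summed to 1298 and 652 CPM in the Sertoli cells of the high-fat and diet-unstated libraries. In pachytene spermatocytes, early round, middle round and late round spermatids they summed to 232, 2061, 4045 and 3933 CPM in the high-fat library and to 128, 1362, 3157 and 3556 CPM in the diet-unstated library, so these markers moved with the members, and their part in the ratios was not tested. In Sertoli cells as a whole, 11 of 23 members were at least 2-fold higher in the high-fat library and 1 was lower, against 15.4% and 5.15% of all genes. In spermatogonia 7 of 26 were higher and 0 lower, against 8.93% and 5.99%. Free RNA there was 47.3% and 31.3% of the library level.

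**Figure D4:**
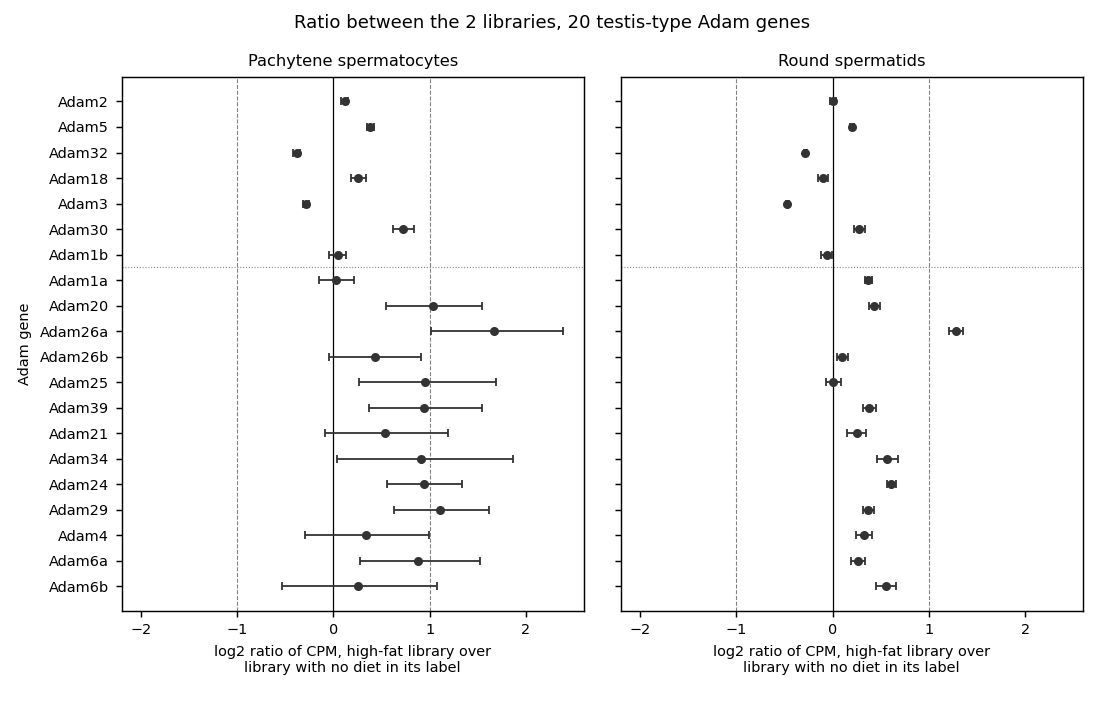
Log2 ratio of the level in the high-fat library over the diet-unstated library for the 20 testis-type Adam genes in pachytene spermatocytes (left) and in all round spermatids (right), with exact 95% intervals that cover counting error only. Dashed lines mark a 2-fold difference, and the dotted line separates the 7 other members above it from the 13 spermatid-side members below. With free RNA not subtracted, all 13 lie at or to the right of 0 in both panels, and Adam26a lies past 2-fold in both.

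The largest difference of a well-counted germ line member between the libraries was that of Adam26a. It had 73.8 CPM (70.7 to 77.1) in middle round spermatids of the high-fat library and 28.0 CPM (26.5 to 29.6) in those of the diet-unstated library, and 48.6 and 14.1 CPM in late round spermatids. Its neighbour Adam26b had 73.3 CPM (70.1 to 76.5) and 69.1 CPM (66.7 to 71.6) in middle round spermatids. Adam26a thus made up 50.9% (49.9 to 51.9) of the counts of the pair in round spermatids of the high-fat library and 31.4% (30.3 to 32.5) in the diet-unstated library. By stage, the share was 54.4%, 50.2% and 47.9% in the early, middle and late clusters of the high-fat library. In the diet-unstated library it was 41.2% in the early cluster, 32.9% and 25.0% in the 2 middle clusters and 23.4% in the late cluster. The gap between the libraries was present in each of these classes and was smaller in early than in late round spermatids. Across all other ways of clustering, filtering and scaling, the log2 ratio of Adam26a in its highest class lay between 1.27 and 1.62. The pair is identical at 296 of the last 400 bases of the transcripts, and how reads that match both were counted is not stated.

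**Figure D5:**
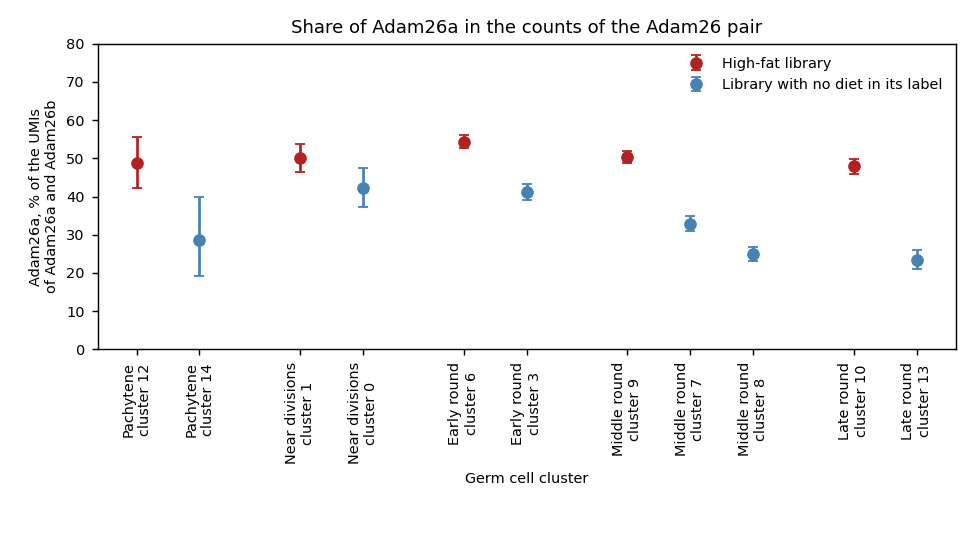
Share of Adam26a in the summed counts of Adam26a and Adam26b (%, vertical axis) in each germ cell cluster from pachytene spermatocytes to late round spermatids, for the high-fat library (red) and the diet-unstated library (blue), with exact 95% binomial intervals. The high-fat clusters lie between 47.9% and 54.4%, and those of the diet-unstated library between 23.4% and 42.2%.

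Other genes that act with ADAM proteins were followed as 3 lists. Of 16 genes needed in the mouse for ADAM proteins to reach or stay on the sperm surface, 14 were highest in a germ cell class in both libraries, against 54.3% of all genes: 4 in meiotic spermatocytes from pachytene on, 7 in spermatids and 3 before pachytene. Clgn, a chaperone of the endoplasmic reticulum that fertilin needs for assembly, had 745 and 708 CPM in pachytene spermatocytes, the class in which Adam2 was highest. Ly6k had 1022 and 941 CPM in leptotene and zygotene spermatocytes. Cmtm2a and Cmtm2b were highest near the divisions, with 2504 and 1994 CPM of Cmtm2a and 1643 and 1684 CPM of Cmtm2b. Lypd4 was highest in early round spermatids, with 1978 and 2426 CPM, and Pmis2 in late round spermatids, with 529 and 538 CPM. In round spermatids 1 of the 16, Rnase10, was at least 2-fold higher in the high-fat library and 0 were lower, against 12.1% and 9.25% of all genes. In pachytene spermatocytes Rnase10 and Prss37 were higher and Pgap1 was lower, against 13.7% and 5.55% of all genes. Rnase10 had 445 counts in pachytene spermatocytes of the high-fat library and 3 in those of the diet-unstated library. These 3 genes were named after their values were seen.

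Of the 15 counted partners of sheddases (rhomboid-like escorts, tetraspanins, proprotein convertases and inhibitors), 9 were highest in a somatic class in both libraries and 5 in a germ cell class, against 22.1% and 54.3% of all genes. Timp2, an inhibitor of metalloproteases, had 502 and 676 CPM in the stroma, and Tspan5, a tetraspanin that binds ADAM10, had 68.4 and 76.4 CPM in myoid and endothelial cells. Tspan33, another tetraspanin of ADAM10, had 33.9 and 31.1 CPM in leptotene and zygotene spermatocytes. Pcsk7, a proprotein convertase, was highest in the same class, with 49.4 and 34.7 CPM, and Tspan17 in Sertoli cells, with 119 and 65.4 CPM. Frmd8, a partner of the escorts of ADAM17, had 62.9 and 74.6 CPM near the divisions. Of 19 counted substrates and ligands, 14 were highest in a somatic class and 4 in a germ cell class, against the same shares of all genes. They included App with 274 and 239 CPM and Notch4 with 52.9 and 58.3 CPM in myoid and endothelial cells, Tgfa, a ligand that ADAM17 releases, with 26.8 and 16.9 CPM in the stroma, and Cdh2, a cadherin, with 40.0 and 56.3 CPM in pachytene spermatocytes. In round spermatids 12 partners and 13 substrates or ligands had at least 20 counts. The partners had a median log2 ratio of -0.38 and the substrates one of -0.40 between the high-fat and diet-unstated libraries, against 0.05 for all genes, and 0 of these 12 and 0 of these 13 were at least 2-fold higher, against 12.1% of all genes. Genes with fewer counts, such as Rhbdf2 with 8 and 4 and Dll1 with 5 and 1 in the high-fat and diet-unstated libraries, were not counted. In pachytene spermatocytes the medians were -0.09 for 8 partners and -0.16 for 9 substrates or ligands, against 0.11 for all genes. There 2 of the 8 and 1 of the 9 were at least 2-fold lower in the high-fat library, against 5.55% of all genes. In both lists 0 were at least 2-fold higher, against 13.7%. The lower ones, named after their values were seen, were Rhbdf1 (3 and 25 counts), Tspan17 (log2 ratio -1.24) and Lgi2 (-1.60). Those at least 2-fold lower in round spermatids, against 9.25% of all genes, and named after their values were seen, were Tspan14 among the partners and Cdh1, Lgi2 and Lgi4 among the substrates and ligands.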

How the data were processed

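For each library the authors deposited a matrix of unnormalized counts (UMIs per gene and cell barcode). The matrices were written by PISA 1.0, per the file headers, and the submitters' processing notes name Cell Ranger 2.1.1. The libraries were made with a droplet kit, per the labels' protocols. No source used here names the build or the gene annotation. Gene IDs were matched to GENCODE M21, where 38571 of 39232 matched with their version.

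The libraries held 12661 barcodes with 201842085 UMIs (high-fat) and 13805 with 207667609. Cells with at least 500 UMIs, 250 genes and at most 20% mitochondrial counts were kept, and doublets called by Scrublet in scanpy 1.11.5 (3.65% and 3.746%) were removed. Both libraries were clustered together (2000 variable genes without Adam genes, 50 components, 20 neighbours, Leiden resolution 1). A cluster was named from marker lists where its cells expressed at least 3 markers and its leading genes or depth did not go against the name. Counts were summed per class and library and divided by the class total to give CPM. Intervals are exact (Poisson for a level, conditional binomial for a ratio, Clopper-Pearson for a share) at 95%, and a ratio was counted with at least 20 counts in the class. They cover counting error only. Free RNA was estimated from marker genes of other cell types and subtracted as an alternative. The ratio calculation was tested on simulated data. Alternatives changed the clustering, the doublet removal, the depth filter, the count minimum, the weighting of cells and the scaling.

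Members with at least 100 counts are named individually, and of each pathway list up to 6 genes with the most counts. The members and lists were chosen with earlier results of these data known.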

Additional observations from a re-analysis of the deposited data

Results flagged for a closer look

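Clusters that could not be given a cell class were not used in any comparison, and in both libraries 3 members had levels there whose interval lay above those of all named classes with at least 20 counts of the gene. One such cluster of 383 cells in the high-fat library and 658 in the diet-unstated library, with medians of 2900 and 1899.5 UMIs and led by predicted genes such as Gm26939, had Adam1a at 404 and 268 CPM, Adam34 at 60.7 and 35.7 CPM, and Adam22 at 35.8 and 60.3 CPM. A second, of 85 and 677 cells with medians of 3844 and 9763 UMIs, had Adam22 at 32.8 and 16.0 CPM. What these cells are was not tested.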

How the results depend on the processing

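The number of members at least 2-fold apart in pachytene spermatocytes was 3, and it was 5 with the Adam genes kept in the clustering, 7 with each library clustered on its own, 6 at Leiden resolution 2, 1 with called doublets kept, 1 with free RNA subtracted, 6 with each cell weighted equally and 5 with no count minimum. The median log2 ratio in round spermatids was 0.10, and it was 0.32 with free RNA subtracted, 0.20 with each cell weighted equally and 0.20 with a count minimum of 100. The cause was not tested. The other 64 values of the main results stayed close to those reported, among them the 16 members higher in middle round spermatids, which came to 15 or 16 under every alternative run. Scaling genes within each library before clustering, chosen after seeing the data, put 90.7% of the high-fat cells and 92.2% of the diet-unstated cells with a class in both into the same class. Of 248 recomputed log2 ratios of 28 single members in their highest class, 180 stayed within the counting interval of the reported ratio, 68 moved outside it, and 0 of those reported as 2-fold apart changed sign. Among the smaller ratios, 22 values of 11 members took the other sign, and the widest ranges that cross 0 were those of Adam10 (-1.16 to 3.15), Adam17 (-0.10 to 1.66), Adam29 (-0.70 to 0.61) and Adam1a (-0.47 to 0.77). Chosen after seeing the data, the count of 13 spermatid-side testis members higher in the high-fat library was 12 or 13 in round spermatids, 7 to 13 in pachytene spermatocytes and, where 10 were reported, 5 to 11 in late round spermatids. Thinning cells to 1000 UMIs lowered the shares of cells with a UMI. No paired analysis was possible because each group is 1 library. Shallow early germ cells and somatic cells limit the members outside the deep germ cell classes.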
